A study of Homo sapiens with 4 samples.

Results

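The miR-15/16 family was followed as 10 mature miRNAs, chosen by name: hsa-miR-15a-5p, hsa-miR-15a-3p, hsa-miR-15b-5p, hsa-miR-15b-3p, hsa-miR-16-5p, hsa-miR-16-2-3p, hsa-miR-195-5p, hsa-miR-424-5p, hsa-miR-424-3p and hsa-miR-497-5p (written without the prefix from here on). All 10 were listed in each of the 4 libraries, among 1921 miRNA names for HT29 and 2041 for HCT15. HT29 and HCT15 are established human colorectal adenocarcinoma cell lines. Small RNA was sequenced from HT29 spheres, HT29 parental cells, HCT15 spheres and HCT15 parental cells, with 1 library for each. Spheres of both lines grew in DMEM-F12 with N2 Plus Supplement, bFGF and EGF at 10 ng/ml each, and the submitters describe them as cancer stem cells derived from spheres. HT29 parental cells grew in DMEM and HCT15 parental cells in RPMI, each with 10% FBS, so that medium and growth form cannot be told apart. No genetic change or drug is named in the labels.

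MicroRNAs guide Argonaute proteins to messenger RNAs, and bases 2 to 8, the seed, do most of the target recognition. Members of this family that carry the common seed repress messenger RNAs for cyclins D1, D3 and E1, CDK6 and BCL2, and thereby slow entry into S phase and favour cell death. The DLEU2 locus that holds the genes of miR-15a and miR-16-1 is deleted in many chronic lymphocytic leukaemias, which made this pair the best-known tumour-suppressor miRNAs.

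The 5p arms are shown because they share one seed, given in capitals (RefSeq, GRCh38.p14, 5′ to 3′):
miR-15a-5p: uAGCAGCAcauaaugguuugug
miR-15b-5p: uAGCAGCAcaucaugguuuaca
miR-16-5p: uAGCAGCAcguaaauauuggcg
miR-195-5p: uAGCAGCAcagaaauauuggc
miR-424-5p: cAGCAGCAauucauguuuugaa
miR-497-5p: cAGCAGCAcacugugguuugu
RefSeq held 7 mature miRNAs with this seed, of which 6 were in all 4 files, and these 6 are the 5p members. Outside the seed they part: miR-15a-5p and miR-15b-5p differed at 4 of 22 positions and miR-15b-5p and miR-16-5p at 8 of 22. miR-16-5p and miR-195-5p differed at 2 of 21 positions, so reads of the scarce miR-195-5p may be uncertain.

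The 3p arms are shown because, unlike miR-16-5p, they tell which locus a read came from; capitals again mark bases 2 to 8:
miR-15a-3p: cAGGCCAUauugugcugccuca
miR-16-1-3p: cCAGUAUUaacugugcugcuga
miR-15b-3p: cGAAUCAUuauuugcugcucua
miR-16-2-3p: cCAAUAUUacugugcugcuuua
miR-195-3p: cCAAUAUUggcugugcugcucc
miR-424-3p: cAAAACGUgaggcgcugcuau
Of these, miR-16-2-3p and miR-195-3p had the same seed and the others a seed each. miR-16-1-3p and miR-195-3p are no members and serve here as the missing arms of their hairpins.

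The hairpins of miR-16-1 and miR-16-2 are shown because they release an identical 5p arm beside different 3p arms. The hairpin of miR-424 is shown because the read shares of its arms differed between the libraries of the lines. Capitals mark the mature arms:
MIR16-1: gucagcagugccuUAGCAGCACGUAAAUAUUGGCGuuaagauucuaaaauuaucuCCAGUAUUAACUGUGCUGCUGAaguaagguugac
MIR16-2: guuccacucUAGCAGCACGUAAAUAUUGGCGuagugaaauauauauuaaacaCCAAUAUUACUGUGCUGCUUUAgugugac
MIR424: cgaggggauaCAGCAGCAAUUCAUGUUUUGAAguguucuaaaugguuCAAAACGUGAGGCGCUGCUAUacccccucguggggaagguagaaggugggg
A read of miR-16-5p therefore cannot be assigned to either of its 2 genes.

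The members come from 4 clusters, placed here with GENCODE 29 on GRCh38. MIR15A (chromosome 13, 50049119 to 50049201, minus strand) overlaps an exon of the noncoding gene DLEU2, and MIR16-1 (chromosome 13, 50048973 to 50049061, minus strand) lies 57 bases away in a DLEU2 intron. MIR15B (chromosome 3, 160404588 to 160404685, plus strand) and MIR16-2 (chromosome 3, 160404745 to 160404825, plus strand) are 59 bases apart in an intron of SMC4, which encodes a condensin subunit. MIR497 (chromosome 17, 7017911 to 7018022, minus strand) and MIR195 (chromosome 17, 7017615 to 7017701, minus strand) overlap exons of MIR497HG. MIR424 (chromosome X, 134546614 to 134546711, minus strand) lies in no annotated gene of its strand, 215 bases from MIR503.

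Depth and identity of the libraries bear on every value below. Listed miRNA reads came to 12794274 in HT29 spheres and 5806540 in HT29 parental cells, and HCT15 RPKM values corresponded to about 2325418 reads in spheres and 3189984 in parental cells. Levels are in CPM, reads per 1000000 listed miRNA reads. For a miRNA listed at 0, a level of up to that of 3 reads was taken as not excluded, which is 0.234 to 1.29 CPM depending on the library. Ratios are log2 of spheres over parental cells after TMM scaling with a prior count of 2, so a positive ratio means higher in spheres. CPM levels and shares carry no TMM scaling, so a ratio can differ in size or sign from the CPM values beside it. Intervals are 95% and cover counting error only. The 7 markers of intestinal epithelium summed to 231937 and 169971 CPM in HT29 spheres and parental cells and to 15034 and 13779 CPM in those of HCT15. Of the other marker lists, the 6 blood-cell miRNAs summed to 36.6 to 405 CPM and the 4 stromal ones to 6.72 to 20.4 CPM over the libraries, and the liver miRNA miR-122-5p was at most 0.625 CPM. The blood-cell sum in HT29 was mostly miR-142-3p, at 367 CPM in spheres and 381 CPM in parental cells. In HCT15 it was mostly miR-486-5p, at 34.8 CPM in spheres and 42.9 CPM in parental cells. The stromal miR-199a-3p was at 13.9 and 15.8 CPM in HCT15 spheres and parental cells. By contrast, miR-223-3p and miR-214-3p were listed at 0 in the 4 libraries and miR-145-5p in 3 of them. The 3 muscle miRNAs, led by miR-1, summed to 1159 CPM in HT29 spheres and 166 CPM in HT29 parental cells and were listed at 0 in HCT15; their part in the results was not tested.

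In HT29, the pool of miRNAs with the common seed was lower in spheres, and of the 4 clusters miR-15b/miR-16-2 had the lowest ratio, -2.42 over its locus-specific arms, beside -1.57 for miR-424, -0.82 for miR-497/miR-195 and -0.45 for miR-15a/miR-16-1. The 6 miRNAs with the common seed together made up 0.0804% of listed reads in HT29 spheres (exact binomial interval 0.0788 to 0.0819%). In HT29 parental cells they made up 0.352% (0.347 to 0.357%). After TMM scaling, which the shares do not carry, their log2 ratio was -1.55 (interval -1.58 to -1.51). Over 6 scalings this ratio lay between -2.13 and -1.32. In these bulk libraries, fewer cells that express a miRNA and less of it per cell cannot be told apart. With 1 library per culture the differences within a line have no replicate check.

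miR-15b-5p, the guide strand of MIR15B, was at 108 CPM in HT29 spheres and 951 CPM in HT29 parental cells, from 1376 and 5520 reads. Its log2 ratio was -2.56 (interval -2.65 to -2.48), rank 3 from the lowest among the 361 miRNAs that averaged 10 CPM or more over this line's libraries. miR-15b-3p, its passenger strand, was at 23.9 CPM in spheres and 160 CPM in parental cells, with a ratio of -2.15 (-2.35 to -1.97). miR-16-2-3p, the arm that marks the neighbouring MIR16-2 hairpin, was at 13.5 CPM in spheres and 52.9 CPM in parental cells, with a ratio of -1.37 (-1.66 to -1.11). All 3 locus-specific products of the cluster were thus lower in HT29 spheres, by 2.59 to 5.89-fold.

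miR-15a-5p, the guide strand of MIR15A in the DLEU2 locus, moved far less. It was at 326 CPM in HT29 spheres and 668 CPM in HT29 parental cells, from 4169 and 3880 reads, with a ratio of -0.45 (-0.52 to -0.39). Its ratio lay between -1.03 and -0.23 over the scalings, on the same side of 0 in each. The other arms of this cluster were scarce. miR-15a-3p had 12 reads in each HT29 library, a ratio of -0.48 with an interval of -1.84 to 0.73. miR-16-1-3p had 32 reads in HT29 spheres and 15 in HT29 parental cells, a ratio of 0.49 (-0.39 to 1.53). For both arms a difference was not detectable at this depth.

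miR-16-5p, the product of both loci and the most abundant member, was at 354 CPM in HT29 spheres and 1826 CPM in HT29 parental cells. Its ratio of -1.79 (-1.84 to -1.74) lay between those of miR-15b-5p and miR-15a-5p. miR-424-5p, the chromosome X member that rises during monocyte differentiation, was at 14.9 CPM in spheres and 66.8 CPM in parental cells, with a ratio of -1.57 (-1.85 to -1.33). miR-195-5p was at 1.17 CPM in spheres and 5.17 CPM in parental cells, a ratio of -1.42 (-2.56 to -0.62) that rested on 15 and 30 reads. miR-497-5p had 9 reads in spheres and 6 in parental cells, and miR-424-3p had 2 in spheres and 4 in parental cells, so neither gave a direction at this depth.

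**Figure D1:**
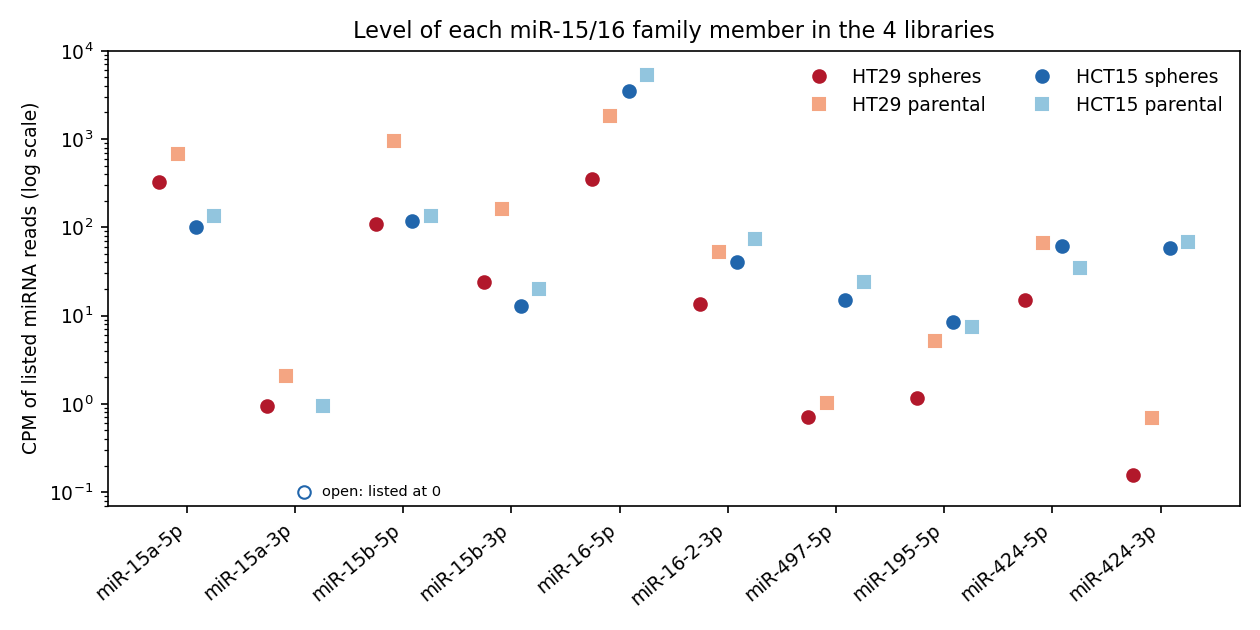
Level of each member in CPM (log axis) in HT29 spheres, HT29 parental cells, HCT15 spheres and HCT15 parental cells, 1 point per library; an open point marks a miRNA listed at 0. miR-15b-5p stood at 108 CPM in HT29 spheres and 951 CPM in HT29 parental cells, whereas its HCT15 points, at 117 CPM in spheres and 135 CPM in parental cells, lie close together.

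Of the 10 members, 6 averaged 10 CPM or more in HT29, and 5 of these 6 were at least 2-fold lower in spheres, against 18.0% of all 361 miRNAs at that level. The 5 were miR-15b-5p, miR-15b-3p and miR-16-2-3p of the miR-15b/miR-16-2 cluster, miR-16-5p, which MIR16-2 can also yield, and miR-424-5p. They are thus not 5 separate loci, and the count does not stand for the family as a whole. None of the 6 was at least 2-fold higher, against 12.7% of all. The median log2 ratio of the 6 was -1.68, beside -0.06 over the 361. miR-15a-3p, miR-195-5p, miR-424-3p and miR-497-5p were below that level. miR-15a-5p was the member of the 6 that was less than 2-fold lower. With total listed reads its ratio was -1.03, and 6 of 6 were at least 2-fold lower. The median over the 361 was then -0.64.

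In HCT15, miR-424-5p was the 1 member at 10 CPM or more that differed by at least 2-fold between cultures. The common-seed miRNAs made up 0.377% of listed reads in HCT15 spheres (0.369 to 0.385%) and 0.561% in HCT15 parental cells (0.553 to 0.569%). Their summed log2 ratio was -0.22 after TMM scaling, with a range of -0.57 to 0.04 over the scalings, so its sign depended on the scaling. At an average of 10 CPM or more stood 8 members; 0 of the 8 reached a 2-fold lower level in spheres, against 5.72% of 332 miRNAs, and 1 of the 8 reached a 2-fold higher level, against 9.34%. The median ratio of the 8 was -0.16, beside 0.05 over the 332. miR-15a-3p, with 0 reads in spheres and 3 in parental cells, and miR-195-5p were below that level.

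miR-424-5p was at 60.6 CPM in HCT15 spheres and 34.5 CPM in HCT15 parental cells, a ratio of 1.15 (0.80 to 1.54) from about 141 and 110 reads. Its direction was opposite to that in HT29, and the HCT15 ratio lay between 0.80 and 1.40 over the scalings. Scaled by total listed reads it was 0.80, under 2-fold. miR-424-3p, the other arm of the hairpin, was at 58.1 CPM in spheres and 68.0 CPM in parental cells, a ratio of 0.12 (-0.20 to 0.44). The arms of this hairpin thus did not move alike in HCT15.

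miR-16-5p was again the most abundant member, at 3468 CPM in HCT15 spheres and 5275 CPM in HCT15 parental cells. Its ratio of -0.25 (-0.29 to -0.21) ran from -0.61 to 0.01 over the scalings. miR-15b-5p was at 117 CPM in spheres and 135 CPM in parental cells (0.14, interval -0.08 to 0.36), and miR-15a-5p at 99.8 and 134 CPM in spheres and parental cells (-0.07, -0.31 to 0.16). Both intervals hold 0, and both signs changed with the scaling. With total listed reads, as in the CPM levels, the ratio of miR-15b-5p was -0.21. miR-16-2-3p, at 40.4 CPM in spheres and 73.0 CPM in parental cells, had a ratio of -0.49 (-0.86 to -0.15) that stayed below 0 over the scalings. miR-15b-3p was at 12.9 CPM in spheres and 19.7 CPM in parental cells, with a ratio of -0.25 (-0.94 to 0.39). miR-497-5p was at 14.8 CPM in spheres and 24.1 CPM in parental cells (-0.34, -0.95 to 0.26), and miR-195-5p at 8.48 and 7.42 CPM in spheres and parental cells (0.50, -0.39 to 1.46). Neither of these last 2 miRNAs differed beyond counting error.

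**Figure D2:**
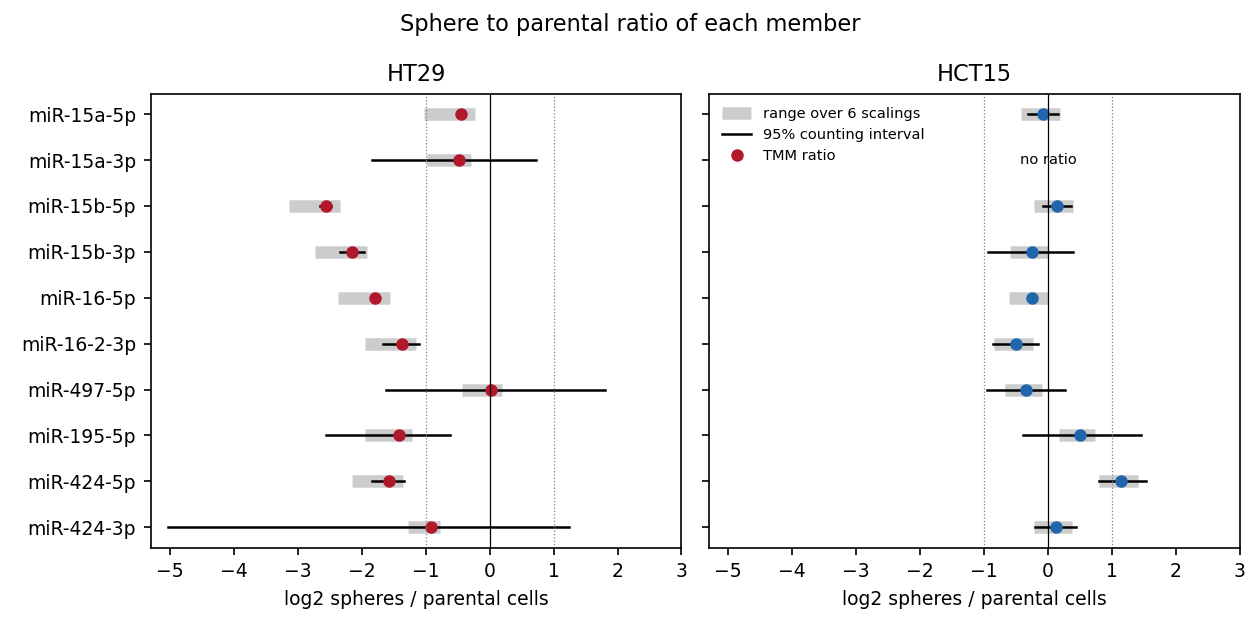
Log2 ratio of spheres over parental cells for each member in HT29 (left) and HCT15 (right). Points are TMM ratios, black lines 95% counting intervals, grey bars the range over 6 scalings and dotted lines a 2-fold difference; miR-15b-5p sits at -2.56 in HT29 and 0.14 in HCT15, and miR-424-5p at -1.57 and 1.15.

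Ratios between members of one library do not depend on how libraries are scaled, and they give the balance of the clusters. Among reads of the 3 locus-specific arms of each cluster, miR-15b/miR-16-2 supplied 30.6% in HT29 spheres (29.4 to 31.7%) and 63.4% in HT29 parental cells (62.4 to 64.3%), the rest being miR-15a/miR-16-1. In HCT15 the same share was 62.4% in spheres (58.5 to 66.2%) and 62.4% in parental cells (59.6 to 65.2%). The balance between the clusters therefore shifted by -1.97 on the log2 scale in HT29 (interval -2.07 to -1.88), and by 0.00 in HCT15 (-0.29 to 0.30). The difference between the lines was not tested, since neither line has a second library of a culture.

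Single pairs shifted in the same direction in HT29, but they mostly reuse the reads of the cluster arms and are no separate test. In HT29 spheres miR-15a-5p gave 4169 of the 4213 locus-specific reads of its cluster, and miR-15b-5p gave 1376 of 1855. There were 0.330 reads of miR-15b-5p per read of miR-15a-5p in HT29 spheres and 1.42 in HT29 parental cells. For miR-16-5p per miR-15a-5p the values were 1.09 in HT29 spheres and 2.73 in HT29 parental cells, and in HCT15 34.8 and 39.4 in spheres and parental cells. For the locus tags, miR-16-2-3p per miR-16-1-3p was 5.41 in HT29 spheres and 20.5 in HT29 parental cells, a log2 change of -1.82 (-2.95 to -0.94). In HCT15 that change was -0.97 with an interval of -2.65 to 0.96, which rested on 6 and 8 reads of miR-16-1-3p in spheres and parental cells.

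The make-up of the common-seed pool, which holds these same 5p reads, also differed between the HT29 cultures. miR-15a-5p supplied 40.5% of the pool in HT29 spheres (39.6 to 41.5%) and 18.99% in HT29 parental cells (18.5 to 19.5%). miR-15b-5p supplied 13.4% in HT29 spheres and 27.0% in HT29 parental cells, and miR-16-5p 44.0% in spheres and 51.9% in parental cells. In HCT15, miR-16-5p supplied 92.03% of the pool in spheres and 94.0% in parental cells. miR-15a-5p and miR-15b-5p each supplied 2.39 to 3.09% there. miR-424-5p supplied 1.61% of the pool in HCT15 spheres and 0.615% in HCT15 parental cells, and in HT29 1.85% in spheres and 1.90% in parental cells.

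**Figure D3:**
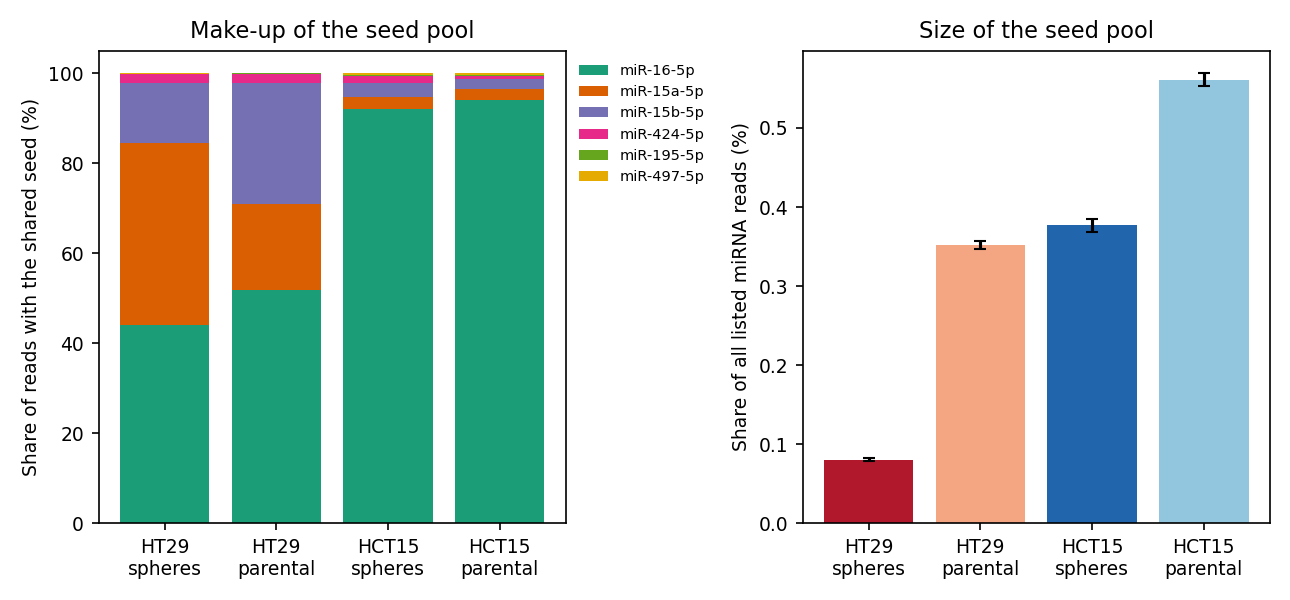
Left, share of each of the 6 common-seed members among reads with that seed, per library; right, that pool as a share of all listed miRNA reads, with 95% exact binomial intervals. miR-15a-5p takes 40.5% of the pool in HT29 spheres and 18.99% in HT29 parental cells, and miR-16-5p more than 90% in both HCT15 libraries.

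Arm use within a hairpin is also free of scaling. The 5p arm held 81.8% of miR-15b reads in HT29 spheres (79.9 to 83.6%) and 85.6% in HT29 parental cells (84.7 to 86.5%), a change of the 5p to 3p ratio of -0.41 on the log2 scale. This change was under 2-fold, whereas 33.3% of 126 HT29 hairpins with at least 10 reads of each arm and 100 of both in each library shifted by 2-fold or more. In HCT15 the miR-15b arms gave 0.36 (-0.29 to 1.12). The ratio of miR-16-5p to miR-16-2-3p is not the arm use of one hairpin, since miR-16-5p also comes from MIR16-1; it changed by -0.41 in HT29 (-0.68 to -0.12) and by 0.23 in HCT15 (-0.11 to 0.61).

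The arms of miR-424 differed more between the lines than those of miR-15a and miR-15b, whose 5p to 3p ratios were 1.69 or less apart on the log2 scale. The 5p arm held 99.0% of miR-424 reads in HT29 spheres (96.3 to 99.9%) and 99.0% in HT29 parental cells (97.4 to 99.7%). In HCT15 it held 51.1% in spheres (45.0 to 57.1%) and 33.6% in parental cells (28.5 to 39.0%), so the 3p arm was the more abundant one in HCT15 parental cells. The change between HCT15 cultures was 1.03 on the log2 scale (0.55 to 1.54), and 16.9% of 83 HCT15 hairpins shifted by at least 2-fold. Between lines, the log2 difference of the 5p to 3p ratio of miR-424, HT29 over HCT15, was 5.52 in spheres and 6.99 in parental cells. By size these were rank 9 of 112 and rank 5 of 118 hairpins with at least 100 reads of both arms together in each library. Both values rest on few reads of miR-424-3p in HT29, 2 in spheres and 4 in parental cells. Their size therefore depends on the prior count of 2. The background was wide: 46.4% and 51.7% of hairpins were at least 4-fold apart between lines in spheres and parental cells, with median absolute differences of 1.91 and 2.12. It also leaned to one side. The more abundant arm had the larger share in HT29 for 61.6% of hairpins in spheres and 63.6% in parental cells. HT29 values were deposited as unnormalized read counts and HCT15 values as RPKM. How reads that match several miRNAs were counted is not given. What part a difference in processing had in the arm ratios was not tested.

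**Figure D4:**
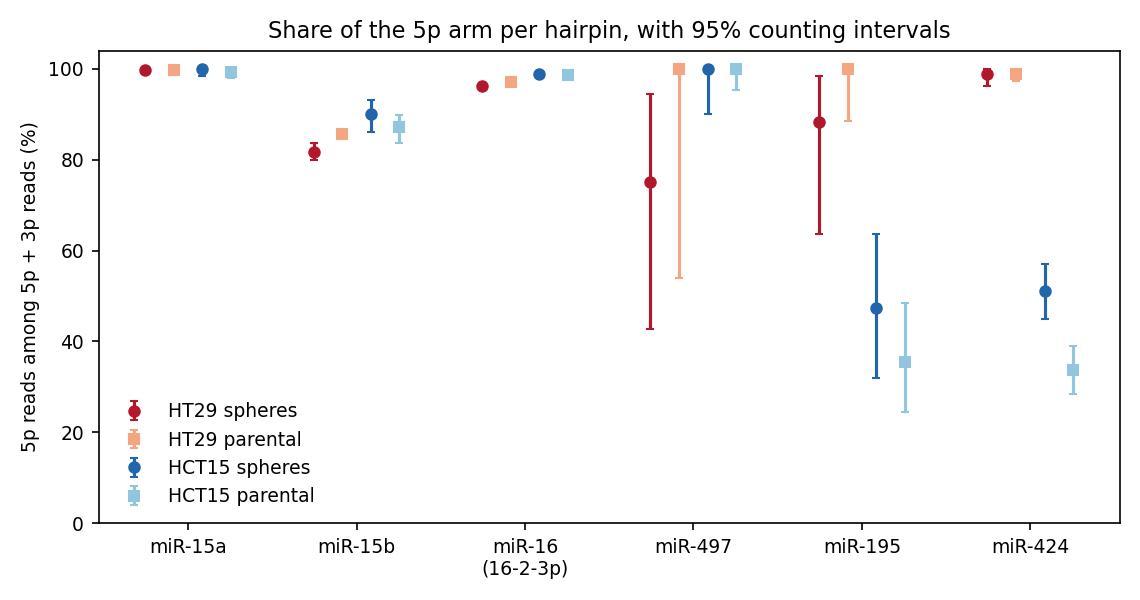
Share of 5p reads among the 5p and 3p reads of each hairpin in the 4 libraries, with 95% exact binomial intervals; miR-16-5p, which comes from both its genes, is set against miR-16-2-3p, so that column is not the arm use of one hairpin. miR-424 stands at 99.0% in both HT29 libraries and at 51.1% and 33.6% in HCT15 spheres and parental cells, while miR-15a stays above 99% in all 4.

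Set side by side, the levels ranked the members differently in the lines. HT29 was deposited as counts and HCT15 as RPKM. What part processing had in these ranks, or in the seed-pool shares between lines, was not tested. In HT29 spheres miR-16-5p and miR-15a-5p, at 354 and 326 CPM, were close, and miR-15b-5p, at 108 CPM, stood below both. In HT29 parental cells the order was miR-16-5p, miR-15b-5p, miR-15a-5p and miR-15b-3p, at 1826, 951, 668 and 160 CPM. In HCT15, miR-16-5p was followed at a distance by miR-15b-5p and miR-15a-5p, whose levels in parental cells, 135 and 134 CPM, did not differ beyond counting error. The miR-497/miR-195 cluster was scarce in both lines, at 2.27 and 6.20 CPM over its 4 arms in HT29 spheres and parental cells and at 32.8 and 45.0 CPM in those of HCT15. In HCT15, miR-195-3p was at 9.46 CPM in spheres and 13.5 CPM in parental cells; the 5p arm held 47.3% of miR-195 reads in spheres (32.0 to 63.6%) and 35.5% in parental cells (24.5 to 48.5%).

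Across both lines, no member passed the test. The limma fit, in which each line was its own block, took in 8 of the 10 members among 377 miRNAs. There, 0 members had a Benjamini-Hochberg adjusted p under 0.05, as did 0 of the 377 (0%). At an unadjusted p under 0.05 there were 0 members and 21 miRNAs in all. The largest fitted changes among members were -1.21 for miR-15b-5p (SE 0.80, adjusted p = 0.760) and -1.18 for miR-15b-3p (SE 0.61, adjusted p = 0.758), both from limma; the ratio was below 0 in 2 of 2 lines for miR-15b-3p and in 1 of 2 for miR-15b-5p. For miR-16-5p the limma log2 change was -1.02 (SE 0.53, adjusted p = 0.758) and for miR-424-5p -0.20 (SE 0.78, adjusted p = 0.962). With 1 residual degree of freedom, these adjusted p-values do not show that a member was alike in the cultures. edgeR's quasi-likelihood test and DESeq2 on reads also called 0 members, with 0 members at an unadjusted p under 0.05 in each, and called 6 and 5 of the 377 miRNAs. In limma fits with other settings, 1 member, miR-16-2-3p, had an unadjusted p under 0.05 with total listed reads, and 3 members did without a filter on low levels, with 0 members called in either.

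**Figure D5:**
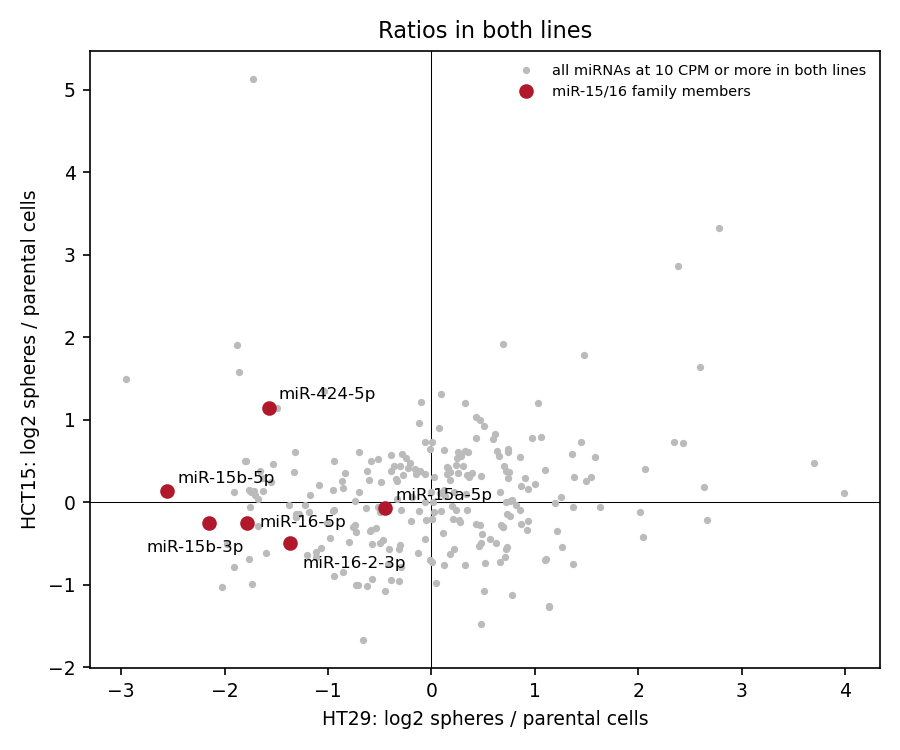
Log2 ratio of spheres over parental cells in HT29 (horizontal) and HCT15 (vertical) for the 252 miRNAs that averaged 10 CPM or more in each line; the 6 members among them are red. The members lie left of 0 in HT29, from -2.56 to -0.45, and between -0.49 and 1.15 in HCT15.

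Other miRNAs of the cell cycle were listed beside the family. Among 11 that slow the cycle, such as let-7a-5p, which represses RAS and cyclin genes, and miR-34a-5p, a p53 target, 5 were at 10 CPM or more in HT29. Of these 5, 0 were at least 2-fold lower or higher, beside the 18.0% and 12.7% of all 361 miRNAs given above, and their median log2 ratio was 0.08; miR-34a-5p had -0.51 and let-7a-5p 0.47. With total listed reads 1 of the 5, miR-34a-5p at -1.09, was at least 2-fold lower. In HCT15, 7 reached that level, again with 0 at least 2-fold lower or higher, beside 5.72% and 9.34% of all 332, and a median of 0.17. With lists this short, counts of 0 lie near those shares. Among 8 that favour the cycle, including miR-17-5p, miR-106b-5p and miR-221-3p, which repress CDK inhibitors, and miR-21-5p, all reached the level in both lines. In HT29 1 of the 8, miR-21-5p at 1.06, was at least 2-fold higher in spheres and 0 were 2-fold lower, with a median of -0.50; miR-17-5p had -0.62 and miR-106b-5p -0.86. These counts turned with the scaling: with total listed reads 4 of the 8 were at least 2-fold lower, miR-17-5p at -1.20 and miR-106b-5p at -1.44 among them, and 0 were higher, miR-21-5p being at 0.48. The median of the 8 was then -1.08, beside -0.64 over all 361 miRNAs. In HCT15 the median of the 8 was 0.36, with 0 at least 2-fold apart after TMM, but 2, miR-221-3p and miR-21-5p, were at least 2-fold higher with upper-quartile scaling and 1, miR-21-5p, with DESeq2 size factors. The median over all 332 miRNAs was 0.30 with upper-quartile scaling and 0.26 with DESeq2 size factors. Shares of all miRNAs are given with TMM alone, so counts with the other scalings have none beside them. Total listed reads in place of TMM moved the library factors by -0.58 on the log2 scale in HT29 and by -0.35 in HCT15, and ratios by about as much, less at low counts because of the prior count. The median of the slowing list was then -0.50 in HT29, beside -0.64 over all 361 miRNAs. In HCT15 it was -0.18, beside -0.30 over all 332.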

How the data were processed

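Libraries of small RNA came from total RNA with a TruSeq kit for small RNA, per the labels' protocols. For HT29 the authors deposited read counts, unnormalized, for each mature miRNA. For HCT15 they deposited RPKM values, again by the headers. Names are those of miRBase, per the file headers. The submitters' processing notes name hg19, from which no position was taken here. Which aligner was used, and how reads that match several miRNAs were counted, is not given in the sources used here.

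HCT15 reads were inferred from the step between low RPKM values, 0.263 per read in spheres and 0.162 in parental cells, and are approximate: within 0.02 reads, 38.1% of low values in spheres and 46.1% in parental cells were whole. With the step halved, 39.1% in spheres and 37.9% in parental cells were whole, so the values do not settle the step in spheres. HCT15 read numbers and counting intervals depend on it. CPM levels do not depend on this step. Library factors came from TMM over the 1882 names in all 4 files (edgeR 4.0.16), and intervals are exact conditional binomial ones (scipy 1.17.1). The test across lines was limma 3.58.1 on log2(TMM-scaled CPM + 1) with a mean-variance trend, in R 4.3.3. It took in miRNAs that reached 10 CPM, without TMM scaling, in 2 or more libraries. edgeR had been planned should both lines hold counts, and the RPKM of HCT15 led to limma. The limma fit has 1 residual degree of freedom, and the 2 lines are the replicates, since nothing says that cultures were repeated. edgeR and DESeq2 1.42.0 on rounded reads were alternatives. Scripts were tested on simulated data.

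All 10 members are named. Up to 4 miRNAs of each cell-cycle list are named, as are the arms and neighbours missing from the members and the 3 nearest miRNAs in pattern. Names were matched as written, apart from miR-503-5p for HT29 and the marker miR-215-5p for both lines, which are listed without an arm. The members and lists were chosen with earlier results of these data known.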

Additional observations from a re-analysis of the deposited data

Results flagged for a closer look

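These results moved in opposite directions in the lines, with counting intervals that leave out 0 in each. Their differences were not tested, since each culture has 1 library, and differences are HT29 minus HCT15. The log2 ratio of miR-424-5p, -1.57 in HT29 and 1.15 in HCT15, differed by -2.72. The log2 change of miR-424-5p against miR-542-3p, a miRNA of the same chromosome X region, was -1.94 in HT29 and 0.84 in HCT15 and differed by -2.78. The change of miR-15b-5p against its cluster partner miR-16-2-3p was -1.18 in HT29 and 0.63 in HCT15 and differed by -1.81. The change of miR-16-5p against miR-15b-5p was 0.77 in HT29 and -0.40 in HCT15 and differed by 1.17.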

How the results depend on the processing

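The counts of members at least 2-fold lower or higher in HT29 spheres, 5 and 0 of 6, stayed the same under each other scaling and prior count run but 1. With total listed reads 6 of 6 were lower, miR-15a-5p then being at -1.03. Without a filter 6 of 10 were lower, the added one being miR-195-5p on 15 reads in spheres and 30 in parental cells. With a mean of at least 50 CPM 3 of 4 were lower. Shares of all miRNAs are given at 10 CPM with TMM alone, so member counts at other settings cannot be set against one. In HCT15, the 1 member at least 2-fold higher was lost (0) with total listed reads, without the 10 most abundant miRNAs and with a mean of at least 50 CPM, and without a filter 1 was at least 2-fold lower, miR-15a-3p, from 0 reads in spheres and 3 in parental cells. The shift of the miR-424 arms in HCT15 was the 1 paired ratio of 9 at 2-fold or more there, and 0 remained with a prior count of 10. Without the 10 most abundant miRNAs in the total, the common-seed share was 0.185% and 0.656% in HT29 spheres and parental cells and 0.919% and 1.27% in those of HCT15. No setting across lines called a member, also without the cell line block that pairs the cultures of a line; over all miRNAs limma called 0 of 377, the fit without a filter 7 of 1234, edgeR 6 and DESeq2 5. Beyond that pairing by line, no pairing by replicate number exists, since the labels give no such numbers and each group has 1 library, and for the same reason no library could be left out within a line. Scaling factors from a line alone and a halved read value for HCT15 were added after seeing the data and changed none of the counts of members at least 2-fold lower or higher; beside these counts they were run for the single member ratios alone. The sign changed with the scaling for 1 of 10 member ratios in HT29, that of miR-497-5p, and 4 of 9 in HCT15. Counts under about 30 reads, as for miR-195-5p, miR-497-5p and miR-15a-3p in HT29, limit what can be seen of these members.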

Other observations

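miRNAs of the chromosome X region that holds MIR424 had ratios of either sign in HT29. miR-450a-5p, like miR-424-5p, was lower in spheres, at 3.13 CPM in HT29 spheres and 7.92 CPM in HT29 parental cells, a log2 ratio of -0.72 (counting interval -1.41 to -0.12) that lay between -1.28 and -0.51 over the scalings. miR-542-3p was at 44.3 CPM in HT29 spheres and 51.5 CPM in HT29 parental cells, with a log2 ratio of 0.36 (0.16 to 0.57) that turned to -0.21 with total listed reads. miR-450b-5p had 86 reads in HT29 spheres and 26 in HT29 parental cells, a ratio of 1.12 (0.52 to 1.86). miR-503-5p, whose seed begins like that of the family, had 28 reads in HT29 spheres and 29 in HT29 parental cells, a ratio of -0.57 (-1.41 to 0.19), and miR-542-5p had 23 reads in HT29 spheres and 21 in HT29 parental cells, a ratio of -0.39 (-1.34 to 0.50). In HCT15, miR-542-3p was at 27.1 CPM in spheres and 27.9 CPM in parental cells, and miR-450b-5p at 28.8 CPM in spheres and 49.5 CPM in parental cells, a ratio of -0.42 (-0.86 to -0.01).

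miR-103a-3p and miR-107, whose sequences begin with the family's seed one base further upstream, had ratios of 0.16 and 0.18 in HT29, each of which turned negative with total listed reads. In HCT15 they had 0.41 and 0.37, above 0 under each scaling run. Among the 145 other miRNAs that averaged 50 CPM or more in each line, those with the pair of ratios nearest to miR-16-5p were miR-301b, miR-301a-3p and miR-425-5p, at distances of 0.11, 0.32 and 0.40 log2 units over the 2 lines. For miR-15a-5p they were let-7i-5p, miR-92a-3p and miR-130b-3p, at 0.07, 0.16 and 0.25. miR-15b-5p had no such close neighbour: let-7e-3p, miR-19b-3p and miR-425-5p lay at 0.80, 0.84 and 0.85. These distances describe 4 libraries and carry no test.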
